A study of Mus musculus with 4 samples.

Results

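The cytoplasmic ribosomal protein genes encode the protein parts of the ribosome. Their transcripts were counted in single cells sorted from mouse brain, and 81 such genes were described out of 28692 genes in the gene table (7656 of which reached a mean of 10 CPM, UMIs per 1000000 UMIs of the library). Members were chosen by symbol alone (Rpl or Rps with a number and at most a short suffix, together with Rplp0, Rplp1, Rplp2 and Rpsa, and without pseudogene symbols). Of 84 genes whose symbols matched, 81 reached a mean of 10 CPM over the 4 libraries, each summed over its cells: 49 belong by name to the large 60S subunit and 32 to the small 40S subunit. The other 3 were Rpl10l with 0 UMIs in every library, Rpl3l with 6 UMIs in all, and Rpl39l with a mean of 3.68 CPM. A UMI (unique molecular identifier) marks 1 captured transcript. The UMIs of Rpl10l allow at most 0.514 CPM in the shallowest library, taking 3 counts as the limit that a count of 0 allows.

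The data came from 4 male C57BL/6J mice aged 90 days, 1 library each, in 1 group (cold Dounce, PBS; n = 4). Every mouse had received phosphate-buffered saline by tail vein, 24 hours before sacrifice per the labels (the study's methods give another interval), and cortex and hippocampus were dissociated by cold Dounce homogenization, which is mechanical and uses no enzyme. Cells were then sorted for CD45 and CD11b, so the sort can hold any brain myeloid cell, and a clog, per the methods, interrupted the sort of the final mouse, which the library titles do not identify by the number used there. With 1 group there was no treatment to compare: the questions were how the genes stand to each other, whether the replicates agreed, and which genes depart from the common pattern.

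A ribosome holds 1 copy of nearly every ribosomal protein, so cells make these proteins in balance, and unassembled ones are degraded. The genes are scattered over the genome and share no operon; what their mRNAs share is a 5′ terminal oligopyrimidine (TOP) tract, a cytosine at the first base followed by a run of pyrimidines. Through it the mTOR pathway and the binding protein Larp1 set how strongly these mRNAs are translated and how stable they are. In microglia, the resident macrophages of the brain, ribosomal protein transcripts are among the most abundant nuclear-encoded messages.

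The start sites of the members are shown first because the TOP tract is the one sequence feature by which the group is usually recognized. RefSeq promoter windows (build GRCm38.p6, 250 bases before and 50 bases from the annotated first base) were matched for 60 of the 81 members. A cytosine followed by at least 4 pyrimidines stood exactly at the annotated first base of 13 of the 60 (21.7%), against 3.01% of all 27025 genes with a window. Within 5 bases on either side it was found for 29 members (48.3%) and for 21.2% of all genes. In the windows below, 15 bases lie before and 15 from the annotated first base, and capitals mark the pyrimidine tract nearest to it. Rps6 encodes the 40S protein that S6 kinase phosphorylates and lies on the minus strand (chr4:86857353-86857382). Rps27 is the 40S gene with the second highest level (minus strand, chr3:90213634-90213663), Rplp2 encodes a protein of the 60S stalk (plus strand, chr7:141447636-141447665), and Rpl15 is a 60S gene whose level varied between libraries (minus strand, chr14:18270972-18271001). Rpl22l1 (plus strand, chr3:28805493-28805522) and Rps27l (plus strand, chr9:66946071-66946100) are paralogues of core genes. Rpl7l1 (minus strand, chr17:46782642-46782671) and Rps28 (minus strand, chr17:33824548-33824577) have no such tract within 5 bases, and so no capitals.
Rps6: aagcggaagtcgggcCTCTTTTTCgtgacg
Rps27: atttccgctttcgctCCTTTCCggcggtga
Rplp2: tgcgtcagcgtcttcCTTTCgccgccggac
Rpl15: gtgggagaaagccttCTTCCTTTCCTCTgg
Rpl22l1: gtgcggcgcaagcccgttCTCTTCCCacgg
Rps27l: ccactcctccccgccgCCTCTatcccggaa
Rpl7l1: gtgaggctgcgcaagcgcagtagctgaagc
Rps28: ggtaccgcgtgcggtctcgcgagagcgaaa

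Of the motifs searched on both strands of the same windows, CCGGAAGT, a sequence that ETS family factors bind, was found for 12 of 60 members (20%) and for 4.31% of all genes, Rps6 and Rps27l among those members. AAGATGGC, which overlaps the core that the factor YY1 binds, was found for 6 members (10%) and 3.19% of all genes, among them Rps27 and Rpl7l1. TATAAA was found for 7 members (11.7%), Rps28 and Rpl22l1 among them, and for 15.7% of all genes. A match describes letters in these windows and not a binding site.

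Depth and quality were similar enough for all 4 libraries to be used. After cells with fewer than 400 genes or more than 10% mitochondrial UMIs were removed, 13002 cells remained, with 2576 to 3692 per library. Library totals were 5841671 to 11267195 UMIs, and the median cell had 1905, 2936, 2197 and 2786 UMIs in replicates 1 to 4. The microglial identity list of 18 genes summed to 83167 to 84983 CPM, and markers of erythroid cells, neutrophils and T and NK cells were at 0 in every library. Macrophage markers summed to 12.05 to 75.99 CPM and monocyte markers to 9.23 to 43.1 CPM. Barcodes found in 2 libraries numbered 81. The immediate early list stood apart in replicate 4, at 3772 CPM against 1755 to 1960 CPM in the others. Replicate 4 has the last title in order, but whether it is the mouse of the interrupted sort cannot be read from the labels. For that mouse the study reports an activation signature, which includes immediate early genes, and found it in hardly any cells of the other mice.

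The ribosomal protein genes made up 7.72% to 8.90% of the UMIs of each library. They summed to 89015, 84960, 78130 and 77168 CPM in replicates 1 to 4, on average 82318 ± 5654 CPM (SD, n = 4). Without replicate 4 the mean was 84035 CPM. Replicate 1 was highest and replicate 4 lowest, and no library stood apart (Dixon's range test, two-sided at the 95% level, which divides the gap between an end value and its neighbour by the range of the 4; largest ratio 0.342). Gene by gene, 69 of the 81 members were highest in replicate 1, where 21.6% of all 7656 genes were highest. The lowest library was replicate 4 for 41 members and replicate 3 for 36, against 23.2% and 19.8% of all genes. Replicate 1 had the fewest UMIs per cell and the highest median mitochondrial share (1.38%, against 1.12% to 1.26%), and their part in its ribosomal level was not tested.

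The balance of the subunits was tighter than the total. The 60S members summed to 44279 to 50616 CPM and the 40S members to 32888 to 38399 CPM. Replicates 1 to 4 had 60S to 40S ratios of 1.32, 1.33, 1.33 and 1.35 in UMIs (1.33 ± 0.0118, SD, n = 4). None of them stood apart (Dixon's range test, ratio 0.420). The median member had 923 CPM in the 60S and 996 CPM in the 40S set, so the larger 60S sum went with its 49 genes against 32 rather than with a higher level per gene.

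**Figure D1:**
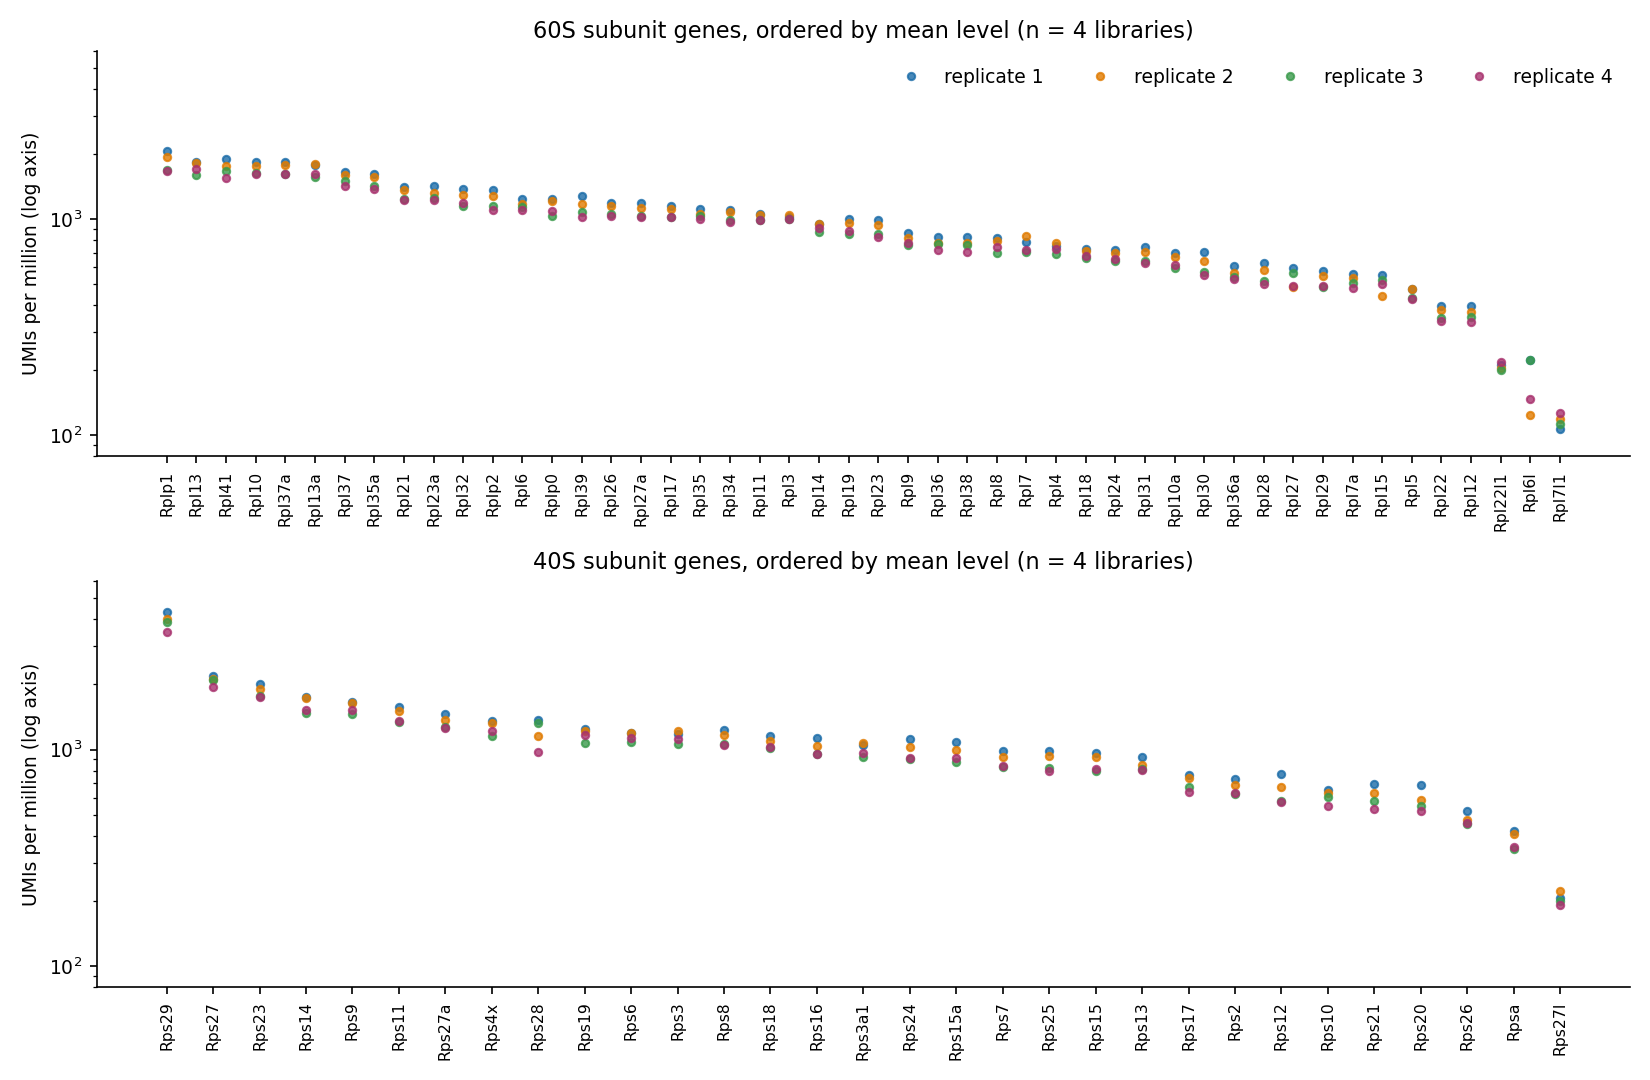
Level of 79 of the 81 genes in each library, in CPM on a log axis, with genes of the 60S subunit above and of the 40S subunit below, ordered by mean level. Most genes form a shallow slope within 2-fold of the median of 970 CPM, Rps29 stands above it, and Rpl22l1, Rpl6l, Rps27l and Rpl7l1 lie below.

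Proteins needed in equal copies had transcripts at unequal levels. A 3′ assay counts 1 UMI per captured transcript whatever its length, so CPM were compared between genes without division by length. For members with near copies elsewhere in the genome (described below), the level also depends on how reads were assigned, which was not tested. Mean levels ran from 117 CPM to 3932 CPM, a 33.7-fold range, but 69 of 81 members lay within 2-fold of the median of 970 CPM, and the 90th percentile was 3.60-fold above the 10th. The SD of log2 CPM among members was 0.845, 0.867, 0.822 and 0.834 in replicates 1 to 4, and 0.84 for the mean levels. Without the paralogues of core genes it was 0.71.

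Rps29, a small 40S protein, was the most abundant member in every library. It had 4339, 3992, 3904 and 3493 CPM in replicates 1 to 4, a mean of 3932 ± 348 CPM, which was 4.77% of all ribosomal protein UMIs. In cells thinned to 1000 UMIs its transcript was detected in 94.7% to 97.1% of cells. Rps27 came next with 2087 ± 103 CPM, and the highest also included Rps23, which lies in the decoding centre, with 1858 ± 125 CPM and Rplp1 with 1837 ± 194 CPM (all SD, n = 4). The gap between Rps29 and Rps27 exceeded the spread of both, while Rplp1 lay above Rps23 in replicates 1 and 2 and below it in 3 and 4.

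At the low end stood 4 genes that are paralogues or copies of core members. Rpl7l1, related to Rpl7 and known as an assembly factor of the 60S subunit, had 107, 119, 113 and 128 CPM. Rpl6l had 223, 125, 223 and 148 CPM. Rps27l, a paralogue of Rps27 known as a p53 target, had 206, 223, 200 and 192 CPM, and Rpl22l1, a paralogue of Rpl22, had 212, 206, 202 and 218 CPM. The lowest core gene was Rpl12, which lies at the base of the stalk, with 364 ± 27.2 CPM (SD, n = 4). It was followed upwards by Rpl22 with 367 ± 27.9 CPM, which lay slightly above it in 3 of 4 libraries and below it in replicate 3 (350 against 351 CPM).

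The acidic stalk recruits elongation factors to the 60S subunit and holds Rplp0 once, with Rplp1 and Rplp2 in several copies. Rplp1 had 2067, 1928, 1689 and 1665 CPM, Rplp2 had 1364, 1279, 1154 and 1103 CPM, and Rplp0 had 1239, 1210, 1034 and 1088 CPM. Rplp1 lay above both others in every library. Rplp2 lay above Rplp0 in 4 of 4 libraries, by little in replicate 4 (1103 against 1088 CPM). Their SDs between libraries (119 and 97.7 CPM) hold the shift that members share and are not the error of this difference.

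Paralogues contributed little to their pairs, with 2 exceptions. Rpl22l1 made up 34.7%, 35.0%, 36.6% and 39.2% of the UMIs of the Rpl22 pair in replicates 1 to 4. Rpl36al, which the symbol rule leaves out, made up 39.5% to 41.3% of the Rpl36a pair. Rpl7l1 accounted for 11.9% to 14.99% beside Rpl7 and Rps27l for 8.61% to 9.51% beside Rps27. Rpl39l accounted for 0.122% to 0.457% beside Rpl39, whose protein lines the exit tunnel, and Rpl3l, known from muscle, for at most 0.0417% beside Rpl3. Rpl10l, known from testis, had no UMI beside Rpl10, which had 1714 ± 108 CPM. Rps4x had 1263 CPM and its partner Rps4l was not analysed here. Outside the symbol rule, Fau, which encodes a 40S protein fused to a ubiquitin-like protein, had 1782 ± 129 CPM.

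Relative to the whole transcriptome, no member had 1 library that stood apart. On log2(CPM + 1), Dixon's range test called 0 of 81 members, while 4.62% of all 7656 genes tested had 1 library apart; the largest ratio of any member was 0.710. The median SD of log2 CPM between libraries was 0.10 for the members and 0.11 for all genes. The members with the largest SD were Rpl6l (0.42), Rps28 (0.22), Rps12 (0.20), Rps20 (0.17) and Rps21 (0.16), of which the last 3 were lower in each of replicates 2, 3 and 4 than in replicate 1. Rps12 had 767, 673, 580 and 571 CPM, Rps20 had 685, 586, 548 and 521 CPM, and Rps21 had 692, 629, 579 and 532 CPM, so these 40S genes followed the order of the summed level with a steeper fall.

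Scaling each library to the members' own summed UMIs removed the shared shift and left the stoichiometry. The median SD between libraries fell to 0.041 on the log2 scale, where counting error alone gives 0.017, and 74 of 81 members had an SD under 0.1. Rpl27a had 1.33%, 1.33%, 1.33% and 1.32% of all ribosomal protein UMIs in replicates 1 to 4, and Rps23 had 2.26%, 2.25%, 2.26% and 2.27%. On this scale Dixon's range test called 5 of 81 members, Rpl26, Rps16, Rpl36a, Rpl5 and Rpl22, while 4.14% of all genes were called, and their SDs were only 0.0078 to 0.033. Rpl22 had 0.448%, 0.449%, 0.448% and 0.438% of the ribosomal UMIs, lowest in replicate 4, but its SD of 0.017 was below the 0.027 that counting error gives, as was that of Rpl26 (0.0078 against 0.016). Rpl5, which carries 5S RNA into the ribosome, had 0.531%, 0.558%, 0.555% and 0.554%, lowest in replicate 1, with an SD of 0.033 against 0.024 from counting error.

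**Figure D2:**
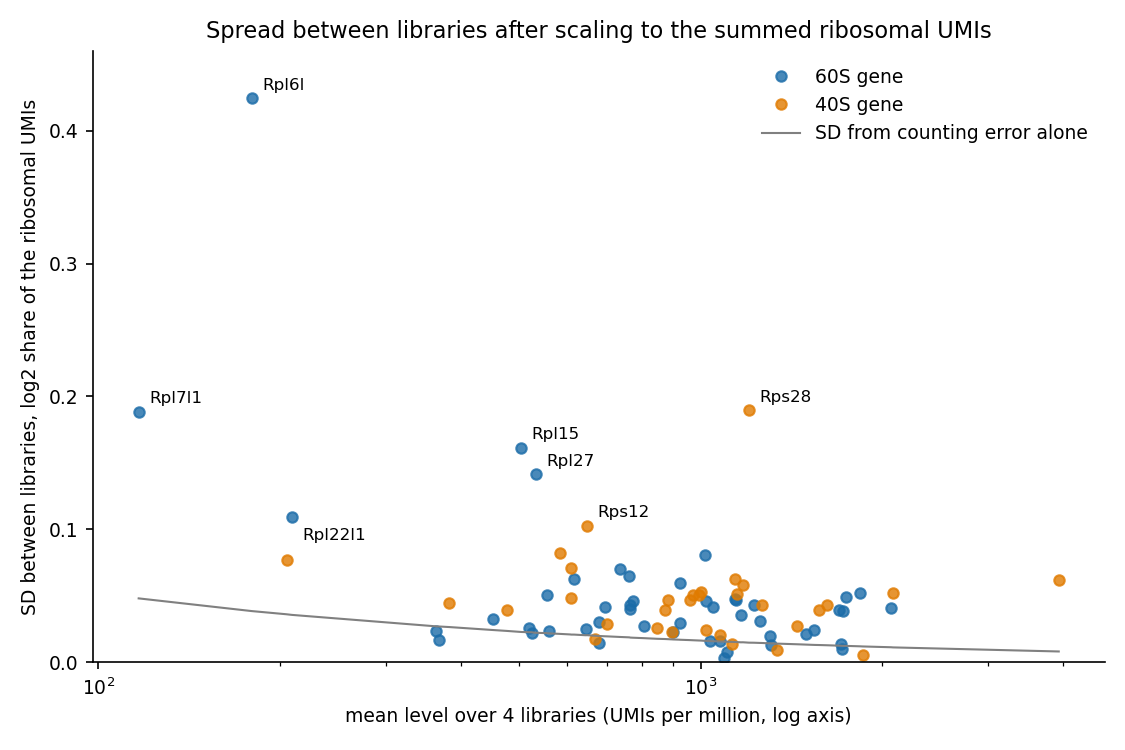
SD between the 4 libraries of each gene's log2 share of the ribosomal UMIs against its mean level (log axis), with 60S genes in blue and 40S genes in orange; the grey line is the SD that counting error alone gives. Most genes lie under 0.1, and Rpl6l, Rps28, Rpl7l1, Rpl15, Rpl27, Rpl22l1 and Rps12 lie at or above it.

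The other 7 members, with an SD of 0.1 or more, departed from the shared stoichiometry in different ways. Rpl6l was the farthest, with an SD of 0.42 on the log2 scale: its share was 0.251%, 0.147%, 0.285% and 0.191% in replicates 1 to 4, high in replicates 1 and 3 and low in 2 and 4. Rps28 had 1365, 1150, 1323 and 972 CPM, and Rpl27 had 593, 484, 562 and 489 CPM, each with replicates 1 and 3 above 2 and 4. Rpl15 had 550, 442, 522 and 502 CPM, lowest in replicate 2. These were the only 4 of the 81 members (Rpl15, Rpl27, Rpl6l and Rps28) whose CPM in replicates 1 and 3 both lay above those in 2 and 4, an order found for 15.5% of all 7656 genes and noticed after the values were seen. In shares of the ribosomal UMIs, 12 of the 81 members and 6.47% of all genes had this order.

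Rpl7l1 and Rpl22l1 had shares that ran against the order of the summed level, while Rps27l did not (0.232%, 0.263%, 0.255% and 0.249%). Rpl7l1 had 0.120%, 0.140%, 0.145% and 0.165% of the ribosomal UMIs, lowest in replicate 1 and highest in replicate 4. Rpl22l1 had 0.238%, 0.242%, 0.258% and 0.282%, in the same order, while its core partner Rpl22 kept 0.438% to 0.449%. In CPM Rpl22l1 changed little (212, 206, 202 and 218), so its share rose mainly as the summed ribosomal level fell. Rps12 went the other way, with 0.862%, 0.792%, 0.742% and 0.740%.

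The identity of Rpl6l bears on its values. In GENCODE M21 (GRCm38) it is annotated as a processed pseudogene (ENSMUSG00000091086, chromosome 10, 111125851 to 111126721, plus strand), the only one of the 81 members that is not listed as protein coding, and its 3′ end is nearly identical to that of Rpl6 (ENSMUSG00000029614, chromosome 5, 121204481 to 121209241, plus strand). Near copies were counted as other annotated genes elsewhere in the genome that share at least 98 bases at 98% identity or more with the last 500 bases of a member's transcript, 98 bases being the read length. Of the 81 members, 55 had at least 1 such copy and 22 had 1 that was itself in the gene table. The assignment of such reads to 1 gene is uncertain, and the levels of these members may be too low. Rps28 (copy Gm10263), Rpl27 (Rpl27-ps3) and Rps12 (Rps12-ps3) were among the 22, and Rpl15 was not.

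The counted copies shared an order among the libraries. They comprised 24 genes outside the member set, of which 19 had a mean of 10 CPM or more, and all 19 were higher in replicates 1 and 3 than in 2 and 4 in CPM, against 4 of 81 members and 15.5% of all genes. Among them were Cd9 (for Rpl7l1) and Wdr89 (for Rplp2), whose symbols are not ribosomal. The shared stretch could lie anywhere in the other gene's transcript. Cd9 had 1829 to 2116 CPM against 107 to 128 CPM for Rpl7l1, so its counts may be its own rather than those of a copy. Rps27rt had 275, 216, 466 and 214 CPM, and Rpl23a-ps3 had 479, 307, 508 and 325 CPM. The genes named as ribosomal pseudogenes (11 at 10 CPM or more) summed to 1415, 859, 1500 and 942 CPM, and all 11 had this order. Most of them are also among the counted copies, so the 2 counts overlap. The median SD of the log2 share was 0.042 for members with a counted copy and 0.040 for the others. Adding the counted copies to a member made its SD larger for 17 of the 22 and smaller for 5, Rpl7l1 with Cd9 among the 5. Rps28 went from 0.19 to 0.20, Rpl27 from 0.14 to 0.18 and Rplp0 from 0.047 to 0.026, and Rpl6 and Rpl6l together had 0.077. Replicates 2 and 4 were also the libraries with more UMIs per cell, and the part of depth and read assignment in this order was not tested.

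**Figure D3:**
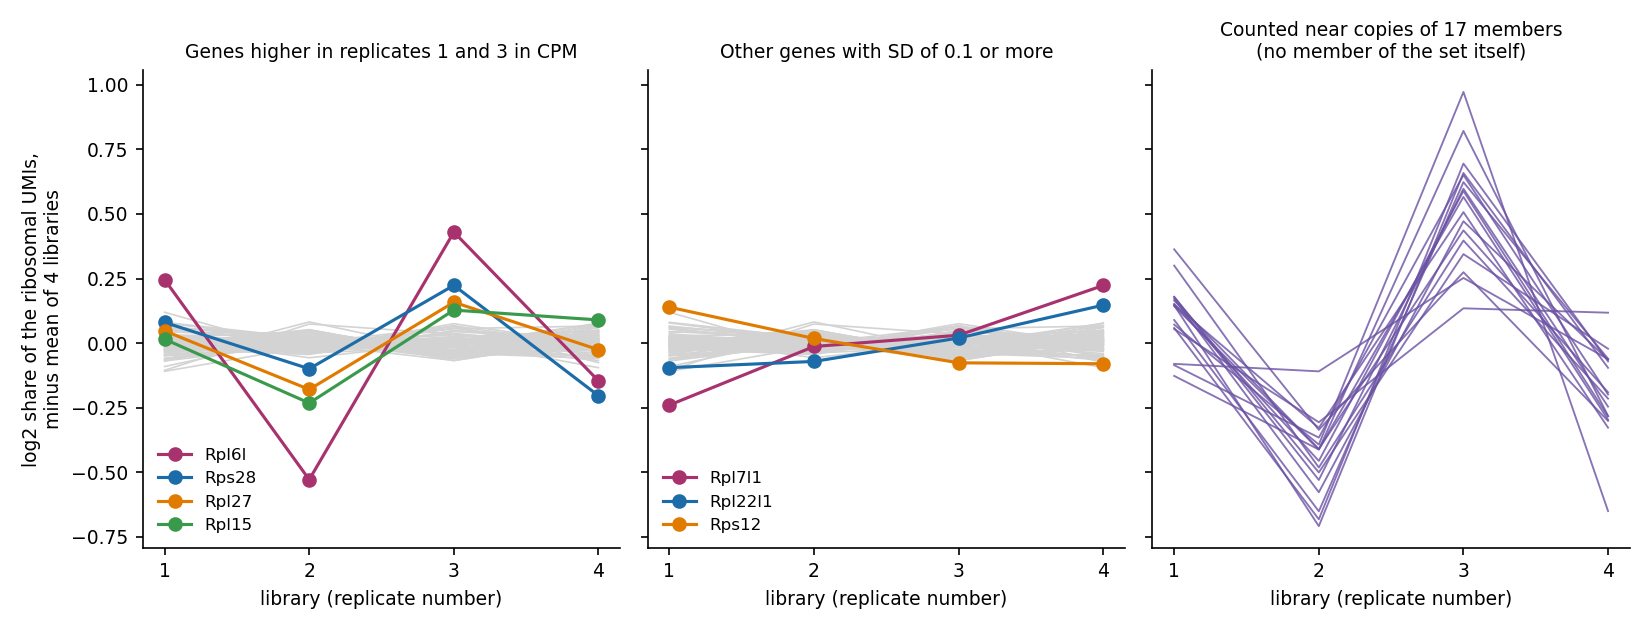
Log2 share of the ribosomal UMIs minus the mean of the 4 libraries, by library; lines only join the values of 1 gene, and grey lines are the 74 members with an SD under 0.1. Rpl6l, Rps28 and Rpl27 are high in replicates 1 and 3 and Rpl15 is low in replicate 2 (left), Rpl7l1 and Rpl22l1 are highest and Rps12 lowest in replicate 4 (middle), and of the summed counted copies of 17 members, 16 are highest in replicate 3 and 16 lowest in replicate 2 (right).

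Single cells differed in how much of their RNA was ribosomal protein message. With each cell thinned to 1000 UMIs (81, 23, 85 and 76 shallower cells left out), the median share was 8.5%, 8.2%, 7.4% and 7.3% in replicates 1 to 4 (unthinned 8.51%, 8.21%, 7.45% and 7.25%) (7.85% ± 0.592, SD, n = 4). No library stood apart (Dixon's range test, ratio 0.250). The 10th percentile of cells was 6%, 6%, 5.3% and 5.2% and the 90th 11.6%, 10.8%, 10.2% and 10.1%, so both were lower in replicates 3 and 4, as the median was. The SD between cells was 2.07% to 2.53%, of which binomial sampling of 1000 UMIs accounts for 0.836% to 0.894%. Across cells, the 60S and 40S UMIs of a cell went together, with Pearson's r of 0.755, 0.665, 0.730 and 0.761 in the 4 libraries; cells of 1 library share its preparation, and at 1000 UMIs sampling noise lowers r. The median cell had UMIs of 45 to 49 of the 81 members at this depth.

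**Figure D4:**
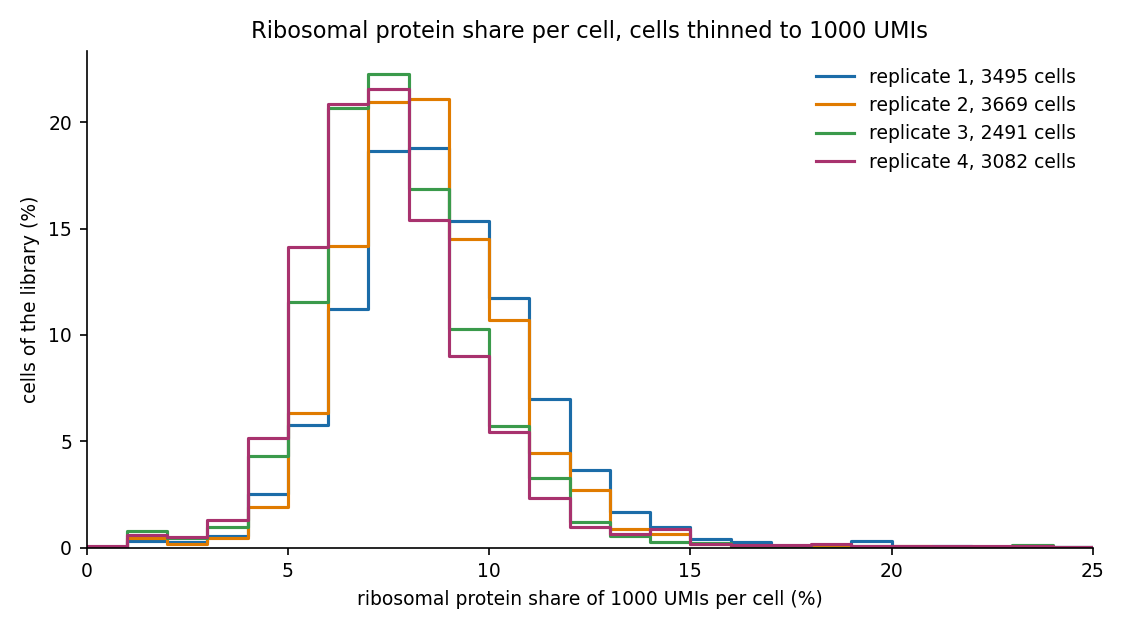
Share of ribosomal protein UMIs per cell in cells thinned to 1000 UMIs, as the percentage of the cells of each library in steps of 1 percentage point. The 4 distributions each have 1 peak, with medians of 8.5%, 8.2%, 7.4% and 7.3%, and a thin tail above 15% that holds 0.409% to 1.52% of cells.

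Within the ribosomal share, single members varied between cells slightly more than random drawing gives. The dispersion index of a member compares the variance of its UMIs between cells with what random drawing from the library's ribosomal pool gives, which is 1. The index was above 1 in every library for 64 of the 81 members, with a median of 1.05 over all members, from 1.002 for Rpl6l to 1.16 for Rps29. The 5 lowest were Rpl6l, Rpl26 (1.004), Rps24 (1.01), Rpl23a (1.01) and Rps7 (1.02). The 5 highest were Rps29, with 1.17, 1.102, 1.15 and 1.20 in replicates 1 to 4, Rplp1 (1.14), Rpl22l1 (1.13), Rps27 (1.12) and Rpl7l1 (1.12). The index exceeded 1.1 in each library for 5 members, Rps29, Rps27, Rpl22l1, Rpl41 and Rps19. The index rises with counts: after thinning to 1000 UMIs the median was 1.02, Rps29 had 1.02, Rps27 1.04, Rpl22l1 1.04 and Rplp1 1.08, while Rpl7l1 had 1.102. Without the MHC class II high and interferon high cells described next, Rps29 had 1.14 and Rplp1 1.11.

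Cells with many MHC class II transcripts held more ribosomal protein message than other cells. Cells with at least 10 UMIs over Cd74, H2-Aa, H2-Ab1 and H2-Eb1, genes of antigen presentation that are no members, numbered 10, 12, 7 and 38 in replicates 1 to 4. In them 22.7%, 14.7%, 21.3% and 18.3% of UMIs were ribosomal, against 8.83%, 8.47%, 7.75% and 7.55% in the other cells of the same libraries, higher in 4 of 4 libraries and with no overlap. The class cells were deeper, with medians of 3692.5, 3545, 3459 and 3200 UMIs against 1904.5, 2935, 2194 and 2784.5. Over the thinned cells of a library, the ribosomal share rose with the log of the cell's UMIs before thinning (Pearson's r 0.228 to 0.245). The part of depth in the class difference was not tested. In edgeR's quasi-likelihood test on summed counts with the library as a block, 74 of 81 members were higher at an adjusted p (Benjamini-Hochberg) under 0.05 and 0 were lower, while 3.64% of the 9566 genes tested were higher and 3.77% lower. The median log2 fold change was 1.11 over the members and -0.44 over all genes tested, so the members' median stood 1.55 above it. Levels were higher in 4 of 4 libraries for 80 members and for 6.43% of all genes. The 60S and 40S medians were 1.101 and 1.14, and the ratio of 60S to 40S UMIs was lower in the class in 4 of 4 libraries (1.23 to 1.27 against 1.32 to 1.35).

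Markers of other myeloid cells were also higher in this class. The microglial identity genes summed to 20158 to 53005 CPM in the class against 83464 to 85142 CPM in the other cells, and all 18 were lower (adjusted p under 0.05). Macrophage markers summed to 365 to 1262 CPM against 5.56 to 61.2 CPM, with 5 of 6 present and Lyve1 at 0, and monocyte markers to 448 to 2807 CPM against 7.05 to 22.8 CPM, with 3 of 3 present. Of the 67 class cells, 53 held a UMI of a macrophage, monocyte or dendritic marker, against 2.89% to 6.09% of the other cells. With all marker-bearing cells left out (a setting added after seeing the data), 2, 4, 1 and 7 class cells remained, their ribosomal share was 28.0%, 13.6%, 7.15% and 9.65% against 8.78%, 8.43%, 7.69% and 7.4998% in other cells, and edgeR called 0 members (also 0 at an unadjusted p under 0.05), with a members' median of -0.20 against -1.26 over all genes. Cells with at least 3 monocyte marker UMIs numbered 12, 7, 5 and 18 in replicates 1 to 4. Of them 3, 3, 3 and 15 were in the class. Of their UMIs 23.3%, 16.5%, 22.1% and 19.9% were ribosomal, against 7.62% to 8.83% in the remaining cells. Cells with at least 3 macrophage marker UMIs numbered 6, 11, 10 and 29, with 5, 3, 1 and 16 in the class. Their shares were 17.95%, 10.8%, 10.2% and 15.6%, against 7.61% to 8.87%. The part of macrophages and monocytes in the class difference, apart from that of the MHC class II cut, was not tested. Cells within 2 UMIs of the cut numbered 0, 3, 0 and 6. Without replicate 1 the count was 34 with a median of 1.11, and without replicate 4 it was 49 with a median of 0.93. With classes set in thinned cells it was 15, with a median of 0.49 against -0.97 over all genes.

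Members that rose most included Rps19, Rpsa, Rpl38 and Rps18. Rps19, a 40S protein mutated in Diamond-Blackfan anaemia, had 5265, 3328, 5366 and 3802 CPM in the class and 1232, 1209, 1052 and 1125 CPM in other cells (log2 fold change 1.73 ± 0.28 SE, edgeR adjusted p = 3.3e-08). Rpsa, known also as a laminin receptor, had 1794, 911, 1421 and 1336 CPM against 342 to 412 CPM (1.66 ± 0.27 SE, edgeR adjusted p = 5.1e-08). Rpl38 (1.66) and Rps18 (1.61) were each higher in the class in 4 of 4 libraries without overlap.

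The other 7 members were not called, among them the paralogues Rpl7l1, Rpl22l1 and Rps27l, while the copy Rpl6l was called higher (log2 fold change 0.99). Rpl7l1 was the only member with a negative value: it had 58.8, 112, 78.9 and 68.3 CPM in the class, from 19 UMIs in all, and 107 to 129 CPM in other cells (log2 fold change -0.68 ± 0.42 SE, edgeR adjusted p = 0.38). Rplp1 had 3441, 2101, 2328 and 2717 CPM against 1651 to 2061 CPM (0.34 ± 0.27 SE, edgeR adjusted p = 0.52). Rpl22l1 (0.69), Rps29 (0.70), Rpl21 (0.70), Rps27l (0.71) and Rpl6 (0.77) had positive values that did not pass (edgeR adjusted p from 0.060 to 0.16). With DESeq2 size factors in edgeR, 79 members were higher, with a median of 1.28 (-0.33 over all genes).

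Other genes linked to translation were called as well. Of 17 TOP genes that are no members, 8 were higher and 0 lower, with a median of 0.78. These are elongation and initiation factors and others such as Gnb2l1, Tpt1 and Npm1. Of 4 ribosomal protein genes outside the symbol rule, 3 were higher, where 3.64% of all genes were. Ribosome biogenesis genes gave 0 of 24 in either direction (median -0.017), and mitochondrial ribosomal proteins 2 of 76 higher (median -0.17). Genes known to act upstream of TOP mRNAs (Larp1, Mtor and others) gave 0 of 12 higher and 1 lower.

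Cells with an interferon signature showed no called change. Cells with at least 5 UMIs over 9 interferon genes, such as Ifit3 and Isg15, numbered 22, 16, 13 and 13 in replicates 1 to 4, with 21, 25, 12 and 22 cells within 2 UMIs of the cut. In them 8.56%, 8.73%, 13.6% and 11.03% of UMIs were ribosomal, against 8.90%, 8.49%, 7.77% and 7.70% in the other cells, so the share was lower in replicate 1, nearly equal in replicate 2 and higher in 3 and 4. In edgeR 0 of 81 members passed, with 1 at an unadjusted p under 0.05, while 1.43% of the 9512 genes tested were higher and 1.01% lower. DESeq2 also called 0, with 20 at an unadjusted p under 0.05. That unadjusted count depended on the setting: edgeR gave 28 with no TMM scaling and 0 without replicate 3. It was 41 among genes of 100 CPM or more, a setting chosen after seeing the data. The median log2 fold change was 0.0996 over the members and -0.34 over all genes, and over the alternatives the members' median ran from -0.26 to 0.40, with either sign. Macrophage markers in the class summed to 0, 1367, 562 and 139 CPM in replicates 1 to 4, against 12.1 to 75.6 CPM in other cells. Monocyte markers summed to 40.3, 14.1, 952 and 3283 CPM, against 9.20 to 25.3 CPM, and the identity genes to 81850, 78931, 52986 and 61923 CPM, so replicates 3 and 4, with the higher ribosomal share, also had the most monocyte and the least microglial signal. Without marker-bearing cells the ribosomal share of the class was 8.53%, 8.25%, 9.30% and 8.40%. That setting, added after seeing the data, called 4 members, all lower.

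The largest values in interferon high cells belonged to Rpl38, with 974, 934, 1542 and 1258 CPM against 702 to 822 CPM (log2 fold change 0.39 ± 0.19 SE, edgeR adjusted p = 0.41), followed by Rplp0 (0.33), Rpl32 (0.31), Rps18 (0.31) and Rpl23a (0.31). At the other end were Rpl7l1 (-0.50 ± 0.33 SE, edgeR adjusted p = 0.59), Rpl30 (-0.17), Rpl22l1 (-0.12), Rpl29 (-0.095) and Rpl13a (-0.091). Rpl7l1 had 81.2, 142, 86.9 and 59.9 CPM in the class against 107 to 128 CPM, overlapping the other cells in replicate 2. Whether the 2 classes differ from each other was not tested.

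**Figure D5:**
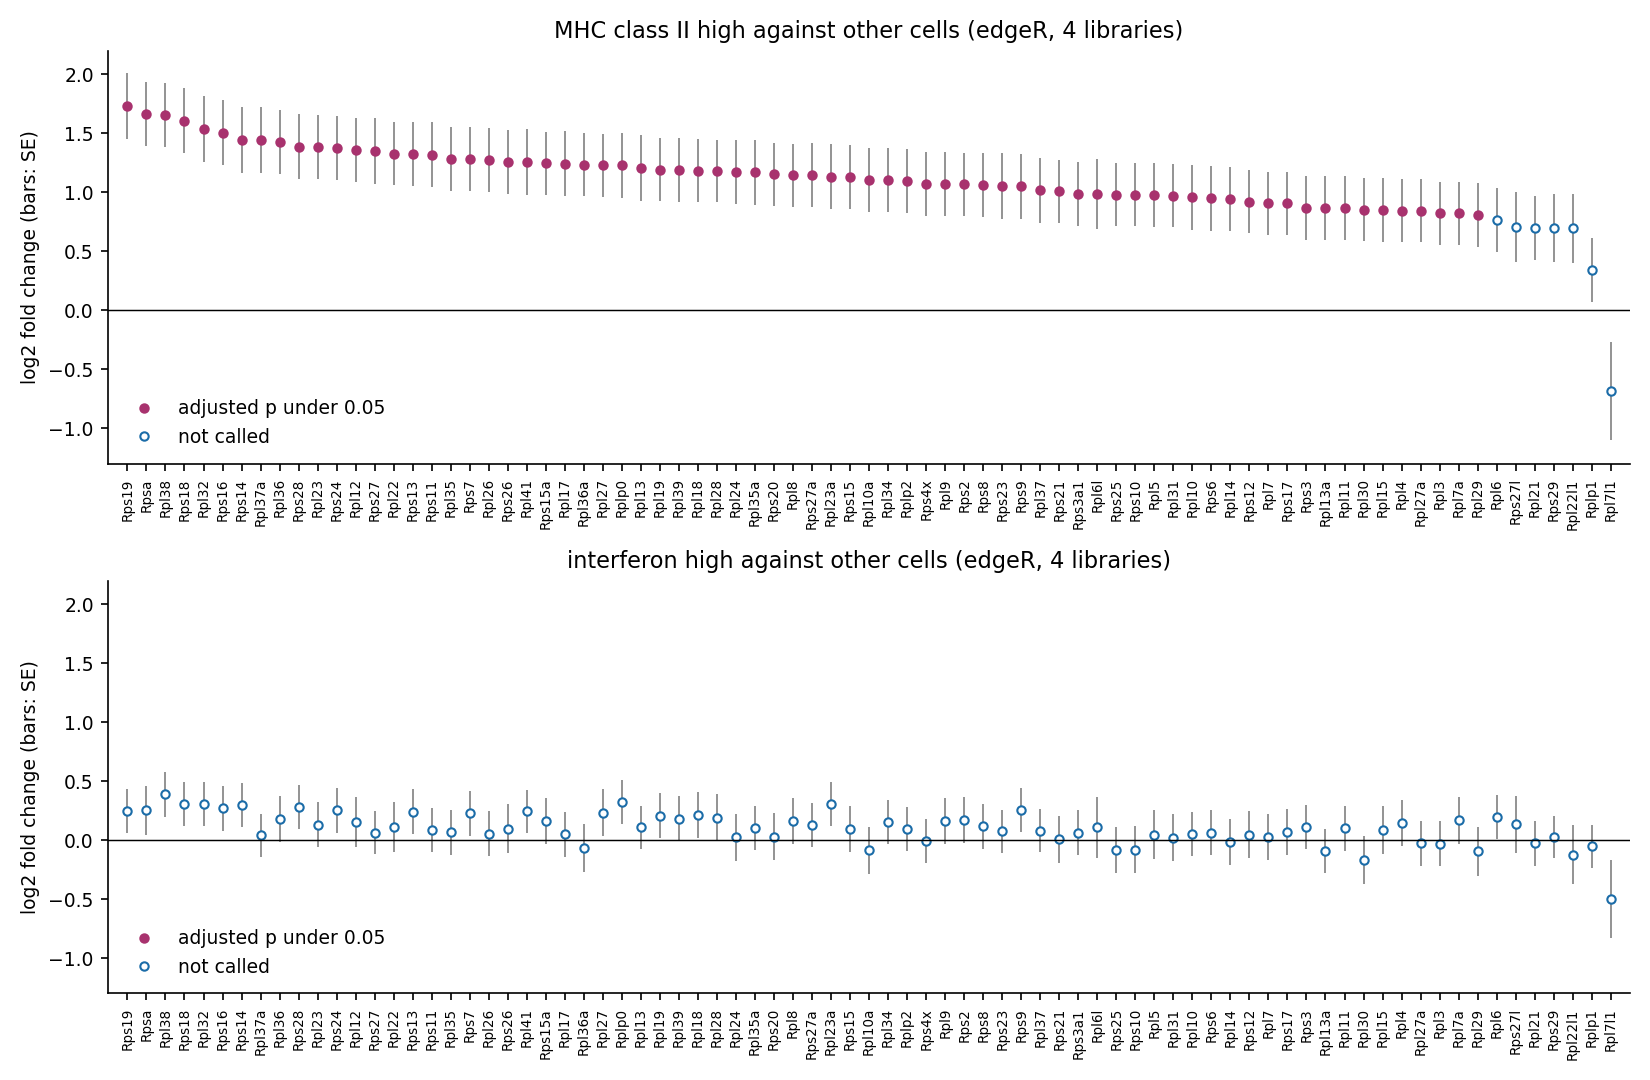
Log2 fold change of 79 of the 81 members in MHC class II high cells (above) and interferon high cells (below) against the other cells of the same libraries, in 1 shared order; bars are SE, filled points passed an adjusted p under 0.05 in edgeR and open points did not. In the upper plot 72 of those drawn are filled, and Rplp1 (0.34) and Rpl7l1 (-0.68) lie lowest; in the lower plot none is filled.

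To see what else moves with ribosomal protein message, the 25% of cells with the highest share (the high group) were set against the 25% with the lowest (the low group) in each library, in cells thinned to 1000 UMIs, with members left out of the test. The groups held 622 to 917 cells each, and 35 to 79 cells of a library lay at each cut value. The high group had 11.9%, 11.004%, 10.4% and 10.5% ribosomal UMIs and the low group 6.01%, 5.96%, 5.24% and 5.11%. The high group was deeper before thinning (median 2035 to 3137 UMIs against 1732 to 2636), had more mitochondrial UMIs (1.37% to 1.72% against 1.06% to 1.24%) and less of the nuclear RNA Malat1 (5.03% to 5.36% against 6.04% to 6.64%). The part of these in the results was not tested.

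Of 7196 other genes, 291 (4.04%) were higher and 146 (2.03%) lower in the high group (edgeR, adjusted p under 0.05, library as a block). The largest log2 fold changes belonged to H2-Aa (5.17), H2-Eb1 (5.01), Cd74 (4.68), Cybb (4.44) and the monocyte marker Plac8 (4.36). All 4 genes of the MHC class II list were higher (median 4.84). With MHC class II high, interferon high and all marker-bearing cells left out, 1 of the 2 list genes still tested was higher (median 0.46). Most TOP genes that are no members were higher in the high group: 15 of 17 were higher and 0 lower. Their median log2 fold change was 0.55, against -0.0096 over all genes. Tpt1, a highly translated TOP message, had 1340, 1333, 1086 and 1060 CPM in the high group and 686, 644, 470 and 541 CPM in the low group (1.05 ± 0.050 SE, edgeR adjusted p = 1.6e-95). Eef1a1, which delivers tRNAs to the ribosome, had 2644 to 3017 CPM against 1398 to 1673 CPM (0.88 ± 0.038 SE, edgeR adjusted p = 1.3e-116). Nap1l1 and Hnrnpa1 did not pass, with 0.25 and 0.28.

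Ribosomal protein genes outside the symbol rule rose as well, 4 of 4, with Fau at 0.95 ± 0.039 and Rps27rt at 1.05 ± 0.074 (SE), but Rpl36al at only 0.30 ± 0.065. Rps27rt is a counted near copy of Rps27, a member on which the cells were chosen, so its rise is no independent result. All 11 genes tested that have pseudogene symbols were higher too. They are named after members, and several are counted near copies of the members on which the cells were chosen, so this is no independent result. Pseudogene and Gm symbols together made up 27 of the 291 genes that were higher, and Gm genes such as Gm10263 are also among the counted copies. For scale, the median member, on which the cells were chosen, differed by 0.97.

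Few genes passed in the other growth-related lists, apart from oxidative phosphorylation. Ribosome biogenesis genes gave 1 of 21 higher (median 0.041), mitochondrial ribosomal proteins 4 of 75 (median 0.017) and TOP regulators 0 of 10. Nuclear genes of oxidative phosphorylation gave 28 of 68 higher and 0 lower (median 0.24), among them Uqcrh, Atp5e and Cox8a. Of 18 microglial identity genes, 13 were lower and 1 higher (median -0.20). Macrophage markers summed to 25.1 to 223 CPM in the high group and to 3.22 to 8.72 CPM in the low group, and monocyte markers to 25.1 to 79.2 and 3.22 to 8.02 CPM. With MHC class II high, interferon high and all marker-bearing cells left out, the TOP genes still gave 14 of 17 higher (median 0.52), oxidative phosphorylation 25 of 68 and identity genes 12 lower. Without the library block 12 TOP genes and 13 oxidative phosphorylation genes passed.

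Members did not share equally in the difference between the groups, given here as a description because their sum chose the cells. Rpl7l1 had log2 differences of -0.043, 0.23, -0.15 and -0.19 in replicates 1 to 4, near 0 where the median member had 0.98, 0.88, 0.99 and 1.04. Rps27l had 0.15, 0.26, 0.50 and 0.52, and Rpl22l1 had 0.96, 0.38, 0.79 and 0.61. All 3 paralogues lay below the median member in each library. At the other end Rpl12, the core gene of lowest level, had 1.19, 1.24, 1.25 and 1.28, above the median member in 4 of 4 libraries, as were Rps12 and Rps28. The ratio of 60S to 40S UMIs was 1.34 to 1.37 in the low group and 1.29 to 1.31 in the high group, lower in the high group in 4 of 4 libraries.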

How the data were processed

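The authors sequenced 10x Genomics 3′ libraries (v2 chemistry), ran Cell Ranger 2.2.0 against mm10 (GRCm38) with a filtered Ensembl annotation, and deposited raw UMI counts per gene and called cell, in 1 matrix per library. Those counts of whole molecules were used as deposited, with no doublets removed. Library totals in cells kept were 7055985, 11267195, 5841671 and 9000804 UMIs in replicates 1 to 4, which puts 3 counts at 0.266 to 0.514 CPM; this floor covers counting error only. The replicate numbers only name the 4 libraries, numbered in the order of their records, and each comes from 1 animal, so no comparison between groups was made. Cells of a library are not replicates: every test compares libraries or counts summed per library and class.

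Barcodes under 400 genes or over 10% mitochondrial UMIs were dropped. Levels are CPM of summed counts, tested on log2(CPM + 1). Thinning drew 1000 UMIs per cell without replacement. Class tests used edgeR 4.0.16 (filterByExpr, TMM, quasi-likelihood, Benjamini-Hochberg over all genes tested) with the library as a block, since both classes of a library come from the same animal; DESeq2 1.42.0 was an alternative. SE is the absolute log2 fold change divided by the square root of the F statistic. On simulated data with 200 changed genes, the false share of calls was 10.8% for the MHC class II comparison (9365 genes), 7.50% for the interferon comparison (9318 genes) and 3.88% for high against low share (6924 genes), against a nominal 5%. The simulation gave all genes the same dispersion and both classes the same profile apart from the changed genes. Rates from it need not be those of the real comparisons, where the classes differ in composition. Coordinates and gene types come from GENCODE M21 (GRCm38), joined by Ensembl identifier; near copies were found with BLAST+ 2.17.0. Of 81 members, 60 had a RefSeq promoter window. Some genes that entered the sums, counts and tests are not reported by name here, and the plots labelled by gene leave them out.

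The members and gene lists were chosen with earlier results of these data known. Genes were named by a fixed rule: the 5 highest and 5 lowest members by level and by dispersion index, the 5 with the largest SD between libraries, members with 1 library apart, paralogue pairs, the stalk genes, and the 5 members at either end of each class comparison with up to 5 called. Genes named besides (the 7 members with a log2 SD of 0.1 or more, Rpl41, the examples of copies, and members and other genes at the ends of the comparison of high and low share) were chosen after their values were seen. Alternatives covered the cell filter, scaling, member set, thinning, block, tool, gene filter, class rule and each library left out.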

Additional observations from a re-analysis of the deposited data

Results flagged for a closer look

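In groups of 4, chance alone sets 1 library apart by Dixon's range test for about 1 value in 20. MHC class II high cells numbered 38 in replicate 4 and 7 to 12 in the others, and made up 1.20% of its cells against 0.272% to 0.325%. The immediate early list summed to 3772 CPM in replicate 4 and to 1755 to 1960 CPM in the others. Scaled to the members' own UMIs, 1 library stood apart for 5 members: Rpl22 had 0.438% of the ribosomal UMIs in replicate 4 (0.448% to 0.449% in the others), Rpl26 1.33% in replicate 1 (1.34% to 1.35%), Rpl36a 0.665% in replicate 2 (0.686% to 0.688%), Rpl5 0.531% in replicate 1 (0.554% to 0.558%) and Rps16 1.27% in replicate 1 (1.22% to 1.23%). Among all 7656 genes, 4.14% had 1 library apart on that scale.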

How the results depend on the processing

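Of the comparisons' main values, the summed level, the 60S to 40S ratio, the share per cell and the counts of members with 1 library apart moved by less than the spread between libraries (or under 1.5 times) in every alternative run; the range test was not run with a library left out, which leaves 3 values. The SD of log2 level among members went from 0.84 to 1.78 with all symbol matches and to 0.71 without the paralogues, and the median dispersion index from 1.05 to 1.02 in thinned cells. In MHC class II high cells, 74 members were called, against 15 with classes set in thinned cells and 0 without marker-bearing cells (chosen after seeing the data), and leaving out 1 library gave 34 (without replicate 1) to 73. In interferon high cells, where 0 were called, 1 was called with DESeq2 size factors in edgeR, 1, lower, with classes set in thinned cells, and, both chosen after seeing the data, 1 among genes of 100 CPM or more and 4, all lower, without marker-bearing cells. The 437 other genes called between cells of high and low share became 109 with a log2 fold change over 0.58 as well, 165 in DESeq2 (124 higher, 41 lower), 162 with no replicate block (141 higher, 21 lower), and 280 (without replicate 1) to 381 with 1 library left out. The block, which pairs classes by the mouse they come from, otherwise moved little: without it 78 members were called in MHC class II high cells and 0 in interferon high cells. Why these counts moved was not tested. In simulated counts for interferon high cells (9318 genes), 9.09% of genes changed 2-fold and 48.4% of those changed 4-fold were recovered, and for MHC class II high cells (9365 genes) 9.09% and 41.5%. The changed genes were drawn at random from all genes tested, whatever their level, so these rates are not those of the members.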
